A study of Homo sapiens with 16 samples.

Results

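Molm14 cells that had received a DOT1L inhibitor and an EZH2 inhibitor together were compared with cells that had received only the solvent. The libraries were chosen by their labels, 4 of the doubly treated cells (Combo) and 4 of the solvent control (DMSO) out of 16 in the series, and 22331 of the 22445 genes of the expression table passed the filter on low values and entered the test. Molm14 is an established line of acute myeloid leukaemia cells that carries a fusion of KMT2A (MLL) with MLLT3 and an internal tandem duplication in FLT3. Combo cells were kept for 7 days in 0.16 uM EPZ5676 and 0.3 uM GSK126, with medium and compounds renewed on day 4. The other libraries came from cells given only 0.16 uM EPZ5676, which inhibits DOT1L (iDOT1L, 4 libraries), or only 0.3 uM GSK126, which inhibits EZH2 (iEZH2, 4 libraries), and DMSO cells received neither compound. No group was untreated, all libraries are of 1 cell line, and the labels do not say whether replicates 1 to 4 were separate cultures, so the spread behind every p-value is that between these libraries and may be technical. One label field places the RNA extraction 3 days after a sort, which goes against the described treatment, and the described treatment was followed.

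DOT1L methylates histone H3 within its core along the body of transcribed genes. In leukaemias with a rearranged KMT2A gene, the fusion protein draws DOT1L and transcription elongation factors to its targets, among them the HOXA cluster, MEIS1 and MEF2C, and holds the cells in a progenitor state. EZH2 is the catalytic subunit of the Polycomb repressive complex PRC2, which methylates the tail of histone H3 and keeps lineage and developmental genes silent, partly through the second Polycomb complex, PRC1, that binds the mark. Neither compound is directed at the RNA of its own target.

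RNA-seq libraries were read in pairs, and levels are given as normalised counts per gene, recovered from the authors' log2 values. Read totals estimated from the steps of the low values were 21.3 to 25.3 M in Combo libraries and 20.7 to 23.3 M in DMSO libraries. Myeloid identity was checked on the defining genes of the label. SPI1 and CEBPA, 2 transcription factors of myeloid cells, had 2833 ± 103 and 11146 ± 410.2 normalised counts in Combo libraries, against 2960 ± 217 and 11447 ± 755 in DMSO libraries (mean ± SD, n = 4). The level of CEBPA is uncertain, since 39.8% of the 31-base words of its transcripts also occur in those of another gene. The summed level of 10 myeloid markers was 36400 to 46000 in Combo libraries and 28100 to 29900 in DMSO libraries. The higher sum came from LYZ and MPO, while FLT3 and ITGAM, of the same set, were lower in every Combo library. CD34, a stem cell marker, was near 0 in both groups, with at most 14.5 normalised counts, and so were the T cell and erythroid markers in the table. Several marker genes of other cells were present in all 8 libraries, namely the B cell factor PAX5, the NK cell markers NCAM1 and NKG7, the keratins KRT18 and KRT8, and the collagen gene COL1A1. COL1A1 had 170.4, 215, 235 and 185 normalised counts in Combo libraries, against 105, 58.8, 51.9 and 45.1 in DMSO libraries (log2 fold change 1.68 ± 0.38 (SE), adjusted p = 0.00562). The summed level of 3 fibroblast markers was 212 to 264 in Combo and 76.4 to 139 in DMSO libraries, that of 4 B cell markers 526 to 847 in Combo and 1000 to 1420 in DMSO libraries, and that of 3 NK cell markers 2990 to 3740 in Combo and 4190 to 4900 in DMSO libraries. Their part in the results was not tested. In bulk RNA, fewer cells of a kind and less RNA per cell cannot be told apart.

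Both inhibitors together changed 3579 of 22331 tested genes at an adjusted p under 0.05, of which 1613 (7.22% of tested genes) were higher and 1966 (8.80%) were lower in Combo cells. Rises were fewer but larger. Among higher genes the median log2 fold change was 0.79, and 637 passed 2-fold (2.85% of tested genes) and 182 passed 4-fold. Among lower genes the median was -0.58, and 426 passed 2-fold (1.91%) and 98 passed 4-fold. Centring each library on its median gene gave 1039 higher and 2386 lower genes, so the balance of rises and falls depends on the scaling. Groups did not overlap for 4439 genes (19.9%). Many genes described below were picked among called genes whose groups do not overlap. Their separation was fixed by that choice. Pseudogenes made up 17.3% of tested genes, but 6.3% of the higher and 2.7% of the lower ones.

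**Figure D1:**
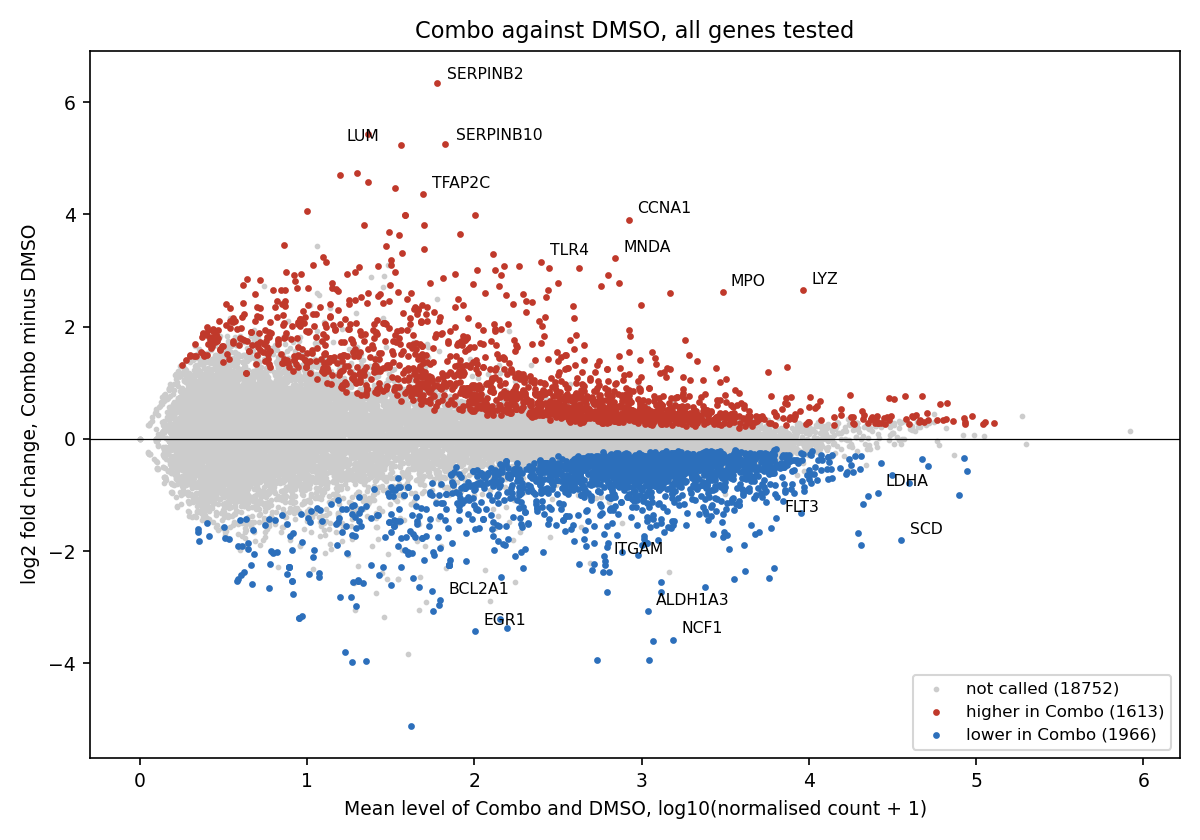
Log2 fold change of Combo over DMSO (vertical axis) against the mean level of both groups as log10 of the normalised count plus 1 (horizontal axis), 1 point per tested gene, n = 4 libraries a group. The 1613 higher genes reach a log2 fold change of 6.34 for SERPINB2 and lie mostly at low and middle levels, while the 1966 lower genes are frequent at high levels.

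The direction of change went with the level of the gene. At a mean of at least 1000 normalised counts over the 16 libraries, 368 of 4851 tested genes were higher and 934 lower. Between 100 and 1000, 642 of 6316 were higher and 800 lower. Between 10 and 100 the order was the other way, with 423 of 4290 higher and 174 lower, and below 10 normalised counts 180 of 6874 were higher and 58 lower. Falls were the more frequent change among abundant RNAs, and rises among scarce ones. Within these bins, from the highest level down, the median log2 fold change was 0.41, 0.61, 1.31 and 1.78 among higher genes. Among lower genes it was -0.49, -0.61, -1.38 and -1.96, so rises were not the larger changes at a given level.

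The first principal component, which held 25.6% of the variance over 15457 genes, ran from Combo to DMSO, with Combo libraries at -39.4 to -27.9 and DMSO libraries at 31.7 to 41.3. Libraries with 1 inhibitor lay between, iDOT1L at -14.2 to 2.39 and iEZH2 at -14.3 to 22.6, and iEZH2 replicate 4 was the lowest of its group. Tested directly, Combo differed from iDOT1L in 577 genes (2.58% of tested genes), with 247 higher (1.11%) and 330 lower (1.48%), and from iEZH2 in 850 genes (3.81%), with 465 higher (2.08%) and 385 lower (1.72%). These counts move with single libraries. Without iDOT1L replicate 1 there were 122 higher and 77 lower genes against iDOT1L, and without iEZH2 replicate 4 there were 712 higher and 637 lower against iEZH2. Differences from the single treatments are therefore given below as values, and called only where they held with each library left out in turn. A comparison of Combo with DMSO and one of a single treatment with DMSO share the DMSO libraries.

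In all, 38 gene lists were counted in Combo against DMSO. Each count is to be read against the shares over all tested genes, 7.22% higher and 8.80% lower. Cholesterol synthesis, glycolysis, sterol uptake, KMT2A-fusion targets and immediate early genes had the largest shares of lower members, and the mitochondrially encoded mRNAs the largest share of higher members. The cytosolic ribosomal proteins came next at 43.6%, but their count was 11 of 78 without Combo replicate 1 or after median centring. Median centring also lowered the number of higher members from 5 to 2 in lysosomal genes, where 4 instead of 1 were then lower, from 6 to 3 in p53 targets, from 5 to 3 in PRC1 genes, from 4 to 1 in MHC class I genes and from 5 to 1 in genes of mitosis and G2 phase. It moved from 2 to 0 in DNA replication genes and from 2 to 1 in interferon-stimulated genes and feedback genes of MAPK signalling. Myeloid lists held members that moved both ways.

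**Figure D2:**
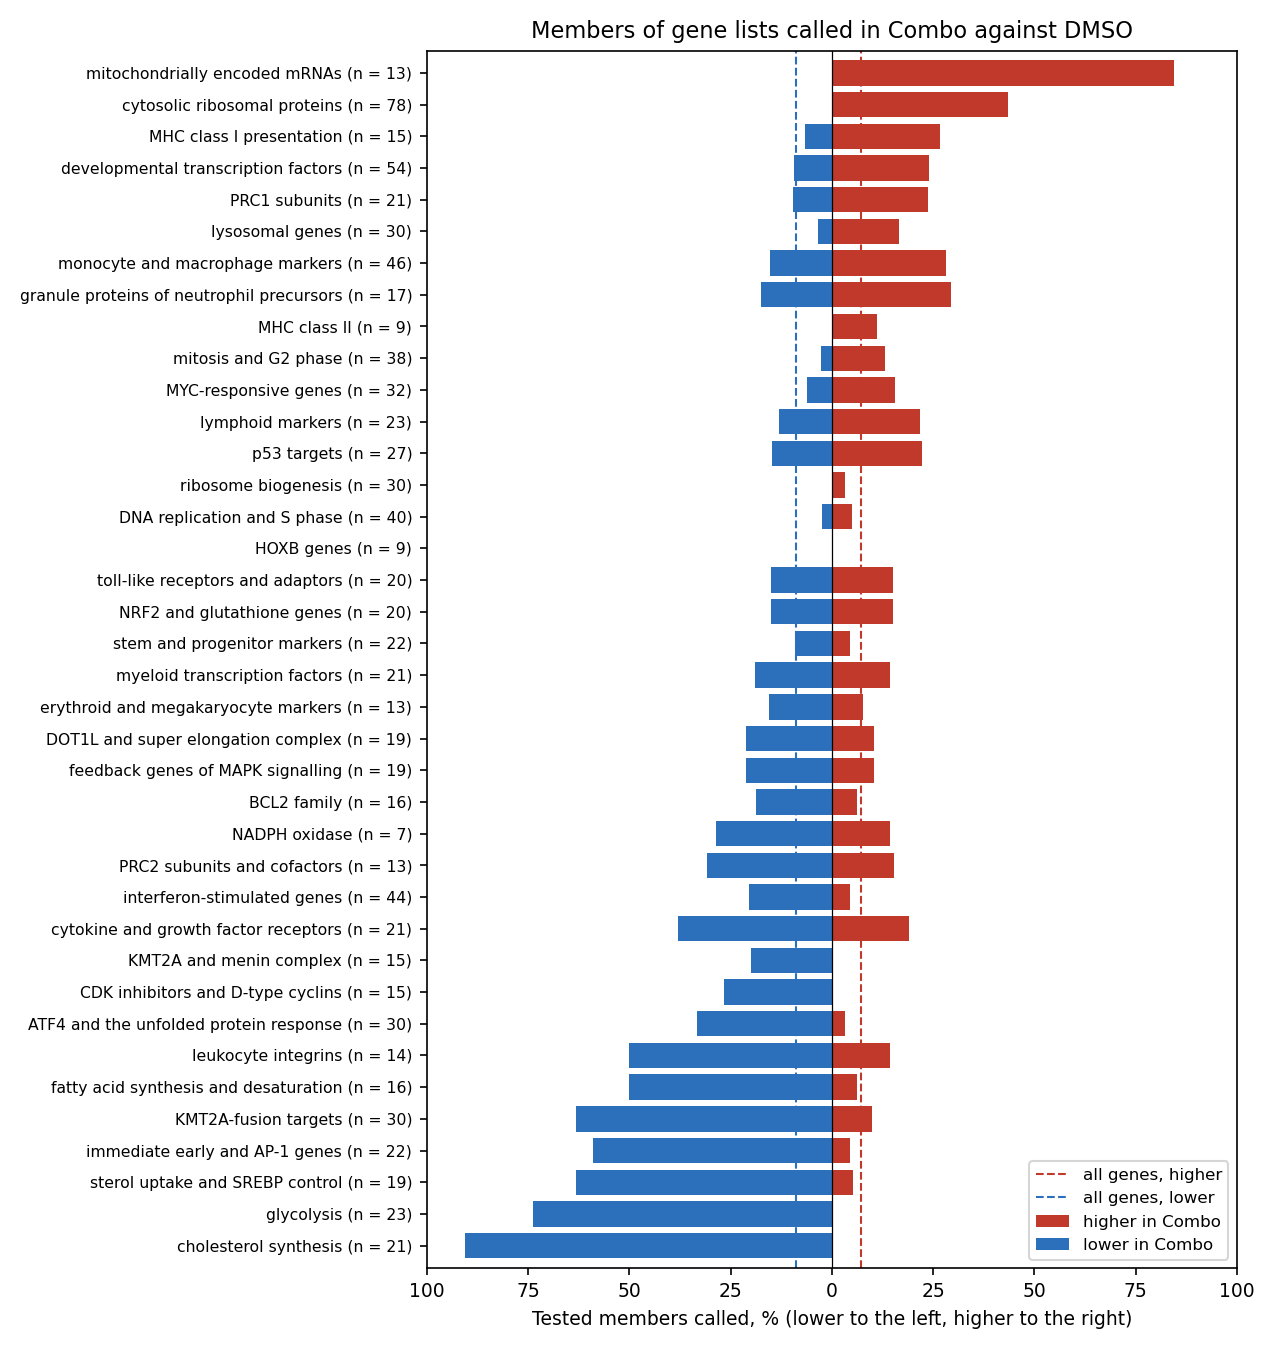
Percent of the tested members of each of 38 gene lists that were lower (bars to the left) or higher (bars to the right) in Combo than in DMSO at an adjusted p under 0.05, with the number of tested members in brackets and dashed lines at the shares over all tested genes (8.80% lower and 7.22% higher). Cholesterol synthesis stands at the bottom, with 90.5% of 21 members lower, and mitochondrially encoded mRNAs at the top, with 84.6% of 13 members higher.

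Genes of cholesterol synthesis were lower in Combo cells along nearly the whole pathway. Cells make cholesterol from acetyl-CoA by way of mevalonate and squalene, and the transcription factor SREBP2 raises most of these genes when membrane sterol is low. Of 21 enzymes, 19 were lower and none was higher, with a median log2 fold change of -0.84 against 0.03 over all tested genes. The members not called were PMVK and GGPS1. DHCR7, which carries out the last step to cholesterol, had 1020, 947, 926 and 881 normalised counts in Combo libraries, against 2837, 2523, 2712 and 2909 in DMSO libraries (log2 fold change -1.54 ± 0.11 (SE), adjusted p = 5.06e-08). Every Combo library lay below every DMSO library. HMGCS1, which makes the precursor of mevalonate, had 3128, 1756, 2156 and 2309 normalised counts in Combo libraries, against 7590, 4874, 7489 and 6952 in DMSO libraries (log2 fold change -1.53 ± 0.23 (SE), adjusted p = 0.000267). Combo replicate 1 was the highest of its group, and the groups did not overlap.

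LSS, the cyclase that makes lanosterol, had 1661, 1459, 1612 and 1785 normalised counts in Combo libraries, against 4149, 3312, 4385 and 4052 in DMSO libraries (log2 fold change -1.28 ± 0.15 (SE), adjusted p = 7.99e-06). Its groups did not overlap. IDI1, the isomerase of the isoprenoid branch, fell by 1.05 on the log2 scale (adjusted p = 1.05e-05), SQLE, the squalene epoxidase, by 0.78 (adjusted p = 0.00229) and MVK, the mevalonate kinase, by 1.06 (adjusted p = 3.74e-05). The smallest falls among called enzymes were those of NSDHL (-0.40) and EBP (-0.41). Calls of these 2 were lost with single libraries left out, NSDHL without Combo replicate 2 (adjusted p = 0.0506) or Combo replicate 3 (0.0667), and EBP in 7 of 8 such fits, with adjusted p up to 0.125 without Combo replicate 3. For each gene named, the share of the 31-base words of its transcripts that also occur in transcripts of other genes, on either strand, was counted, and a level is uncertain where this share is over 20%. CYP51A1, ACAT2, FDPS and HSD17B7 share 22.7% to 83.0% of their words, and the shares of other such genes are given where they are named.

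**Figure D3:**
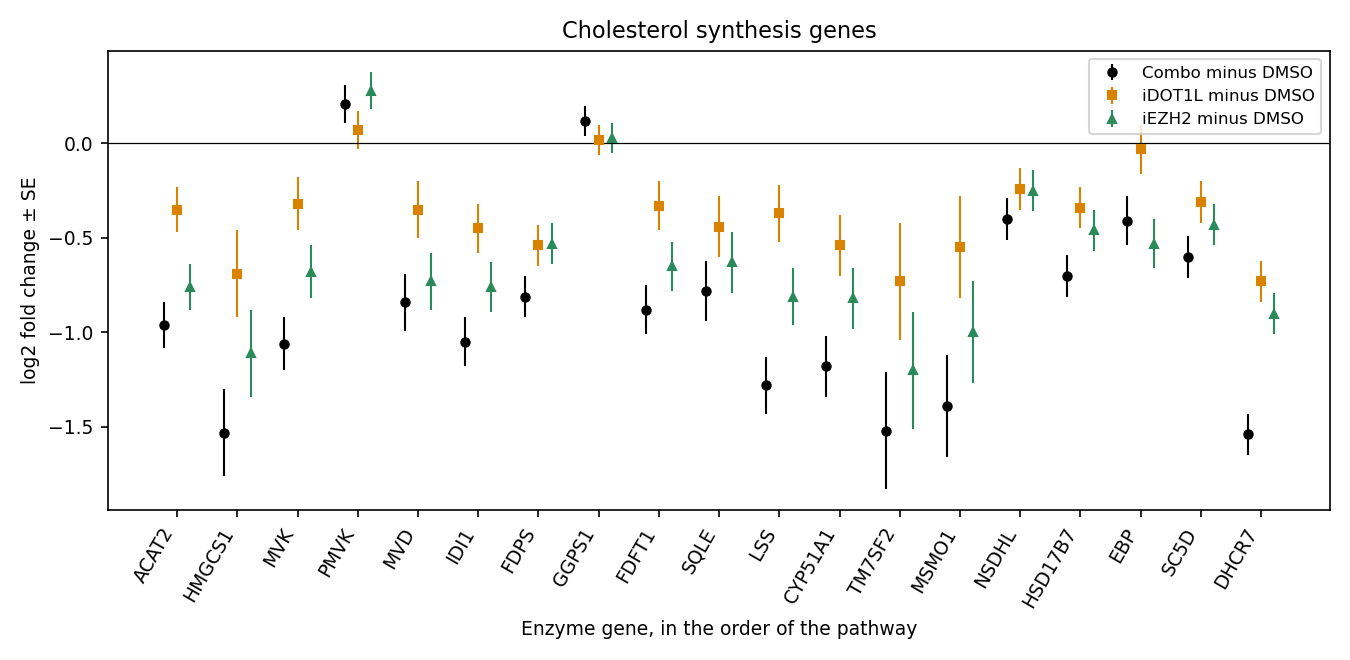
Log2 fold change with its SE (vertical axis) of 19 cholesterol synthesis genes in the order of the pathway (horizontal axis), for Combo, iDOT1L and iEZH2, each minus DMSO, n = 4 libraries a group. All 3 comparisons share the DMSO libraries. Combo values lie lowest for 16 genes and reach -1.54 for DHCR7, while PMVK and GGPS1 lie above 0.

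DHCR7 was also lower in Combo than with either inhibitor alone. It had 944 ± 58.0 normalised counts in Combo libraries, against 1656 ± 195 in iDOT1L and 1487 ± 249.8 in iEZH2 libraries (log2 fold change -0.81, adjusted p = 0.000618, and -0.64, adjusted p = 0.00115). Of the 21 enzymes 9 were lower in Combo than in iDOT1L, where 1.48% of tested genes were, and 2, DHCR7 among them, were lower than in iEZH2, where 1.72% were, and none was higher in either comparison. The first count was 4 without Combo replicate 3, iDOT1L replicate 1 or iDOT1L replicate 3 and 5 without Combo replicate 4 or iDOT1L replicate 4, and the second was 1 without Combo replicate 3 or 4 or iEZH2 replicate 1, 2 or 3. LSS, MVK and ACAT2 were lower than in iDOT1L in every fit with a library left out (log2 fold change -0.92, -0.74 and -0.61), and their differences from iEZH2 did not pass the test.

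Genes that control sterol supply fell with the enzymes. INSIG1, which retains SREBP in the endoplasmic reticulum when sterol is plentiful and is itself an SREBP target, had 3201, 1789, 1966 and 2162 normalised counts in Combo libraries, against 8336, 5874, 7612 and 7147 in DMSO libraries (log2 fold change -1.69 ± 0.22 (SE), adjusted p = 4e-05). It was lower in all 4 Combo libraries than in any DMSO library. Of 19 tested genes of this list 12 were lower and 1 was higher, with a median of -0.67. SREBF2, which encodes SREBP2, fell by 0.68 on the log2 scale (adjusted p = 0.000263) and SREBF1, its paralogue, by 0.69 (adjusted p = 7.38e-05). ABCA1, which exports cholesterol from cells and is raised by liver X receptors, was the gene that rose. It had 164, 203, 199 and 156 normalised counts in Combo libraries, against 84.5, 107, 69.6 and 76.1 in DMSO libraries (log2 fold change 1.10 ± 0.20 (SE), adjusted p = 0.00085).

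SREBP acts at promoters together with the CCAAT-binding factor NF-Y, so the promoters of these genes were read for 2 motifs, and 4 are shown for genes named above. The windows run from 250 bases before to 50 bases after the start of a RefSeq transcript on GRCh38.p14, printed along the gene's strand, with capitals marking a CCAAT box (CCAAT or its reverse complement ATTGG) or a sterol regulatory element (TCACNCCAC or GTGGNGTGA). DHCR7 lies at chr11:71448344-71448643 on the minus strand, HMGCS1 at chr5:43313363-43313662 on the minus strand, INSIG1 at chr7:155297628-155297927 on the plus strand and SREBF2 at chr22:41832855-41833154 on the plus strand.
DHCR7: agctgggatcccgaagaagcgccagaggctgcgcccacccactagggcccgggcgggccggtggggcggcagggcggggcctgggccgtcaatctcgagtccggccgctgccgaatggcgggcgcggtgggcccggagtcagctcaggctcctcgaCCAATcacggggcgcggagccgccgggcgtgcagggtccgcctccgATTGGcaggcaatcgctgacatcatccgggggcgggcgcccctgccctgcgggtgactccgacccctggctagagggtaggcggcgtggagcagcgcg
HMGCS1: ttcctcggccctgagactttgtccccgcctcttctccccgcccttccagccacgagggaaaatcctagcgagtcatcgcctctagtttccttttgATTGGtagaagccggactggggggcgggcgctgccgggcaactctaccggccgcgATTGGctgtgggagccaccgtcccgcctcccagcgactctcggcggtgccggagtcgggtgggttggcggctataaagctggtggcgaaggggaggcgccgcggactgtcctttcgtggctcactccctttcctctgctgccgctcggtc
INSIG1: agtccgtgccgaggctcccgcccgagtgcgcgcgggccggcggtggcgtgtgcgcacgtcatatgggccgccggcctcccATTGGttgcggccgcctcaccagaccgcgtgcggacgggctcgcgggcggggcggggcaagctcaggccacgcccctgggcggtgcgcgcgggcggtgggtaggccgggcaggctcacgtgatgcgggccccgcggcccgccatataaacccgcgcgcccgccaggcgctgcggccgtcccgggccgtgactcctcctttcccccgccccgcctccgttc
SREBF2: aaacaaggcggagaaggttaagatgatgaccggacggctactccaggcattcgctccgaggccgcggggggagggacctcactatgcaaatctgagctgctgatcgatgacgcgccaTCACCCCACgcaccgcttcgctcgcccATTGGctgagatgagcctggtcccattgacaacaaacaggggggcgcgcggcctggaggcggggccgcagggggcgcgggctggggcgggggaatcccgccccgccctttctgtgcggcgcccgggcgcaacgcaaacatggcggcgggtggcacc
The DHCR7 and HMGCS1 windows each hold 2 CCAAT boxes, and INSIG1 holds 1. A second RefSeq start of DHCR7 and one of HMGCS1 have windows with neither motif. SREBF2 holds 1 sterol regulatory element and 1 CCAAT box, and no motif overlaps another. A CCAAT box was found in 14 of 16 cholesterol synthesis genes that have a window and in 10 of 17 genes of sterol uptake and SREBP control, against 34.6% of all 35116 windows and 39.7% of the 27305 genes with one. The sterol element in these letters was found in 0 of the 16 and 1 of the 17 genes, and in 1.1% of all windows. A match describes the letters only.

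Fatty acid genes that SREBP also raises were lower too, led by the desaturases. SCD, which puts the first double bond into saturated fatty acids, had 18328, 14075, 15346 and 15713 normalised counts in Combo libraries, against 63154, 46412, 55416 and 57275 in DMSO libraries (log2 fold change -1.81 ± 0.17 (SE), adjusted p = 1.23e-06). FADS2, which starts the synthesis of polyunsaturated fatty acids, had 1824, 1053, 1243 and 1404 normalised counts in Combo libraries, against 5718, 4203, 5975 and 5397 in DMSO libraries (log2 fold change -1.96 ± 0.28 (SE), adjusted p = 0.000163). For both genes all Combo libraries lay below all DMSO libraries. Of 16 genes 8 were lower and 1 was higher, with a median of -0.47, and 5 were lower without DMSO replicate 1. FASN, the fatty acid synthase, fell by 0.72 (adjusted p = 0.000367) and ACLY, which supplies its acetyl-CoA, by 0.50 (adjusted p = 0.000255) on the log2 scale. The rise was that of SCD5, a second desaturase of primates (0.52, adjusted p = 0.00136). SCD was lower in Combo than in iDOT1L (-0.94, adjusted p = 0.00686) and than in iEZH2 (-0.75, adjusted p = 0.0142).

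Glycolytic genes were lower in Combo cells from glucose uptake to lactate export. Of 23 genes 17 were lower and none was higher, with a median of -0.54, and 1 was higher without Combo replicate 4. PDK1, a kinase that inhibits pyruvate dehydrogenase, had 896, 546, 537 and 682 normalised counts in Combo libraries, against 1927, 1620, 1610 and 1504 in DMSO libraries (log2 fold change -1.35 ± 0.20 (SE), adjusted p = 0.000161). LDHA, which makes lactate, had 21533, 16075, 16451 and 16506 normalised counts in Combo libraries, against 33987, 34121, 33328 and 34518 in DMSO libraries (log2 fold change -0.96 ± 0.10 (SE), adjusted p = 2.11e-06). SLC16A3, the transporter that exports it, had 4138, 3051, 3198 and 3402 normalised counts in Combo libraries, against 6959, 6653, 7329 and 7247 in DMSO libraries (log2 fold change -1.04 ± 0.10 (SE), adjusted p = 1.49e-06). None of these 3 genes had overlapping groups.

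The largest falls of the list were those of ALDOC, an aldolase, and PFKFB4, which sets the level of a regulator of phosphofructokinase. ALDOC had 715, 215, 241 and 299 normalised counts in Combo libraries, against 2869, 1351, 2444 and 2326 in DMSO libraries (log2 fold change -2.74 ± 0.47 (SE), adjusted p = 0.00125) and PFKFB4 had 328, 79.4, 136 and 163 normalised counts in Combo libraries, against 1231, 683, 1238 and 1078 in DMSO libraries (log2 fold change -2.72 ± 0.53 (SE), adjusted p = 0.00288). Replicate 1 was the highest and replicate 2 the lowest of the Combo libraries for both genes. SLC2A1, the main glucose transporter, fell by 1.17 (adjusted p = 0.0022), PGK1 by 0.62 (adjusted p = 6.9e-05), ENO1 by 0.48 (adjusted p = 2.08e-05) and PKM, the pyruvate kinase gene, by 0.42 (adjusted p = 0.00897) on the log2 scale. LDHA was lower in Combo than in iEZH2 (-0.50, adjusted p = 0.00467). Part of these genes, ALDOC, PFKFB4, PDK1 and SLC2A1 among them, are known to respond to low oxygen, and the part of culture conditions at harvest was not tested.

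Targets of KMT2A fusions were mostly lower. Of 30 genes 19 were lower and 3 higher, with a median of -0.58. The largest change of the list was a rise, that of CCNA1 (3.91, adjusted p = 1.47e-06), which is described below. MEF2C, a transcription factor that KMT2A-rearranged leukaemias depend on, had 1924, 1512, 1776 and 1769 normalised counts in Combo libraries, against 6826, 6082, 6440 and 6378 in DMSO libraries (log2 fold change -1.89 ± 0.17 (SE), adjusted p = 1.08e-06). MEIS1, the cofactor of HOXA9, had 738, 684, 668 and 797 normalised counts in Combo libraries, against 1684, 1401, 1585 and 1658 in DMSO libraries (log2 fold change -1.13 ± 0.13 (SE), adjusted p = 8.1e-06). FLT3, the receptor kinase that is mutated in this line, had 3988, 3289, 3339 and 3240 normalised counts in Combo libraries, against 10901, 8234, 9145 and 8689 in DMSO libraries (log2 fold change -1.41 ± 0.14 (SE), adjusted p = 1.23e-06). Combo and DMSO libraries did not overlap for any of the 3.

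Within the HOXA cluster the changes were uneven. HOXA3 had 193, 136, 197 and 145 normalised counts in Combo libraries, against 539, 383, 389.8 and 297 in DMSO libraries (log2 fold change -1.24 ± 0.22 (SE), adjusted p = 0.000649), HOXA5 fell by 1.11 (adjusted p = 0.000316), and HOXA6 and HOXA11 had log2 fold changes of -1.34 and -0.60 (adjusted p = 0.00116 and 0.00243). HOXA6, HOXA9, HOXA10 and HOXA11 share 37.0%, 24.3%, 24.5% and 29.8% of their words, mainly with antisense genes, so these 4 levels are uncertain. HOXA9, the best known target, had 1636, 1252, 1422 and 1346 normalised counts in Combo libraries, against 1788, 1451, 1577 and 1582 in DMSO libraries (log2 fold change -0.18 ± 0.09 (SE), adjusted p = 0.198). Its groups overlapped and it did not pass the test. HOXA10 was called (-0.39, adjusted p = 0.0191), but not without Combo replicate 2 (adjusted p = 0.0626), Combo replicate 3 (0.0516) or DMSO replicate 3 (0.0511). PBX3, a HOX cofactor, fell by 1.00 (adjusted p = 6.07e-05), CDK6, the kinase of early G1, by 0.90 (adjusted p = 0.00683), and MYC had a log2 fold change of 0.16 (adjusted p = 0.358).

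Several of these genes were lower in Combo than in iEZH2. MEF2C had 1745 ± 171 normalised counts in Combo and 4578 ± 1294 in iEZH2 libraries (log2 fold change -1.35, adjusted p = 0.000166). MEIS1 differed by -1.01 (adjusted p = 0.000159), HMGA2, an architectural chromatin protein of fetal cells, by -1.38 (adjusted p = 5.57e-05) and SOCS2, a brake of cytokine signalling, by -1.17 (adjusted p = 2.51e-05). Over the 30 targets 16 were lower than in iEZH2 (12 to 18 with a library left out) and 1 was higher (1 to 2). Against iDOT1L 4 were lower and 2 higher. With a library left out 1 to 2 were higher there, and the number lower was 1 without Combo replicate 3 or 4 or iDOT1L replicate 1 and 2 without Combo replicate 2 or iDOT1L replicate 3 or 4. FLT3 was lower in Combo (3464 ± 352) than in iDOT1L (6139 ± 1344, log2 fold change -0.81, adjusted p = 0.00425). For MEIS1, PBX3 and HMGA2 the log2 difference from iDOT1L was -0.27, 0.23 and 0.06, with adjusted p of 0.323, 0.43 and 0.893.

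The genes of the inhibited enzymes themselves did not pass the test. DOT1L had 4235, 6650, 6412 and 6328 normalised counts in Combo libraries, against 6731, 6946, 6744 and 6761 in DMSO libraries (log2 fold change -0.22 ± 0.12 (SE), adjusted p = 0.218). Combo replicate 1 was far below the other Combo libraries, and all 4 were below the DMSO libraries. EZH2 had 1831, 2028, 2106 and 2135 normalised counts in Combo libraries, against 1578, 2040, 2038 and 1968 in DMSO libraries (log2 fold change 0.09 ± 0.12 (SE), adjusted p = 0.677), and its groups overlapped. EZH1, the other catalytic subunit of PRC2, was higher (0.50, adjusted p = 0.0114). JARID2, which helps PRC2 to bind chromatin, fell by 0.50 (adjusted p = 0.000272), and MLLT10, a partner of DOT1L, by 0.41 (adjusted p = 0.0035). TASP1, the protease that cleaves KMT2A, fell by 0.75 (adjusted p = 0.000466) and was also lower than in iEZH2 (-0.79, adjusted p = 0.0011).

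PRC1 genes include members that EZH2 activity is known to silence. CBX2, a reader of the PRC2 mark, had 672, 886, 766 and 836 normalised counts in Combo libraries, against 419, 423, 410.2 and 417 in DMSO libraries (log2 fold change 0.91 ± 0.10 (SE), adjusted p = 5.27e-06). PCGF2, a core subunit, had 96.3, 61.1, 75.1 and 74.3 normalised counts in Combo libraries, against 20.3, 13.0, 17.5 and 18.1 in DMSO libraries (log2 fold change 2.09 ± 0.33 (SE), adjusted p = 0.000193), and shares 43.4% of its words, mainly with its neighbour CISD3. Both were higher in every Combo library than in any DMSO library. In all, 5 of 21 PRC1 genes were higher and 2 lower, or 1 lower without Combo replicate 1 or 3 or DMSO replicate 1 or 4. CBX2 was higher in Combo than in iDOT1L (0.61, adjusted p = 0.00383), and its difference from iEZH2 was 0.21 (adjusted p = 0.324). BCOR, of the variant complex that carries KDM2B, fell by 0.66 (adjusted p = 0.00053).

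Granule and monocyte genes rose steeply but not as a whole. MPO, the peroxidase of azurophil granules, had 4627, 5901, 5364 and 5055 normalised counts in Combo libraries, against 803, 1078, 781 and 788 in DMSO libraries (log2 fold change 2.61 ± 0.23 (SE), adjusted p = 1.34e-06). LYZ, the lysozyme gene, had 11726, 21832, 17380 and 12895 normalised counts in Combo libraries, against 2448, 2538, 2225 and 2640 in DMSO libraries (log2 fold change 2.65 ± 0.22 (SE), adjusted p = 7.9e-07), and 39.3% of its words are shared with other genes. MS4A3, a marker of granulocyte and monocyte precursors, had 239, 463, 347 and 287 normalised counts in Combo libraries, against 48.7, 73.3, 41.4 and 55.7 in DMSO libraries (log2 fold change 2.58 ± 0.25 (SE), adjusted p = 1.12e-06). Every Combo library was above every DMSO library for these 3. Of 17 granule genes 5 were higher (29.4%, against 7.22% of all tested genes) and 3 lower (17.6%, against 8.80%). The lower ones were AZU1, SRGN, the proteoglycan that packs granules (-0.46, adjusted p = 0.00271), and RNASE2, the eosinophil neurotoxin gene (-0.44, adjusted p = 0.00276). The fall of AZU1 was small and not called without DMSO replicate 3 (adjusted p = 0.0603) or DMSO replicate 4 (0.0631).

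Among 46 monocyte and macrophage genes 13 were higher (28.3%, against 7.22% of all tested genes) and 7 lower (15.2%, against 8.80%). Their median was 0.35, and 8 were higher without DMSO replicate 1. CCR2, the receptor that brings monocytes to inflamed tissue, had 926, 1369, 1216 and 937 normalised counts in Combo libraries, against 119, 175, 153 and 132 in DMSO libraries (log2 fold change 2.93 ± 0.25 (SE), adjusted p = 5.35e-07). TLR4, the receptor for lipopolysaccharide, had 399, 508, 501 and 393 normalised counts in Combo libraries, against 60.1, 54.9, 37.8 and 47.0 in DMSO libraries (log2 fold change 3.16 ± 0.25 (SE), adjusted p = 1.77e-07). MNDA, a nuclear antigen of myeloid cells, had 1058, 1400, 1408 and 1143 normalised counts in Combo libraries, against 107, 166, 136 and 127 in DMSO libraries (log2 fold change 3.22 ± 0.21 (SE), adjusted p = 4.76e-08). For all 3, the lowest Combo library stood far above the highest DMSO library. CLEC12A, an inhibitory lectin found on leukaemic blasts, had 111, 228, 225 and 185 normalised counts in Combo libraries, against 15.1, 3.95, 18.7 and 9.77 in DMSO libraries (log2 fold change 3.99 ± 0.43 (SE), adjusted p = 4.28e-06). CD36, the scavenger receptor, was higher, with 2853 ± 263 normalised counts in Combo against 1012 ± 145 in DMSO libraries (adjusted p = 0.000151), and KLF4, a factor of monocyte differentiation, rose by 0.80 (adjusted p = 0.000767) on the log2 scale. CD14, the classical monocyte marker, stayed at 10 normalised counts or fewer and did not pass the test (adjusted p = 0.514).

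Integrins of mature myeloid cells went the other way. ITGAM (CD11b) had 251, 154, 216 and 254 normalised counts in Combo libraries, against 1208, 678, 1098 and 979 in DMSO libraries (log2 fold change -2.17 ± 0.34 (SE), adjusted p = 0.000333). ITGAX (CD11c) had 84.5, 46.0, 55.3 and 69.0 normalised counts in Combo libraries, against 357, 165, 437 and 352 in DMSO libraries (log2 fold change -2.29 ± 0.29 (SE), adjusted p = 2.51e-05). DMSO replicate 2 was the lowest of its group for both genes and still above all Combo libraries. Of 14 leukocyte integrin genes 7 were lower and 2 higher. ITGB2, the beta chain that pairs with both, fell by 0.63 (adjusted p = 0.00398) and ITGAL by 0.53 (adjusted p = 0.00195), whereas ITGA4 rose by 0.59 (adjusted p = 0.00248) and ITGB7, its partner on gut-homing cells, by 0.75 (adjusted p = 0.00857). ITGB7 shares 36.0% of its words, mainly with ZNF740.

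Subunits of the phagocyte NADPH oxidase moved in opposite directions. CYBB, the catalytic subunit, had 361, 279.6, 322 and 362 normalised counts in Combo libraries, against 58.4, 59.6, 123 and 48.5 in DMSO libraries (log2 fold change 2.27 ± 0.23 (SE), adjusted p = 2.07e-06). NCF1, the cytosolic subunit p47-phox, had 432, 156, 215 and 203 normalised counts in Combo libraries, against 2942, 1980, 3394 and 3051 in DMSO libraries (log2 fold change -3.58 ± 0.36 (SE), adjusted p = 1.1e-05), and 49.5% of its words are shared, mainly with the pseudogene NCF1B. RAC2, the small GTPase of the complex, fell by 0.81 (adjusted p = 0.00114), and the other 4 of 7 genes were not called, although a second gene was higher without Combo replicate 2. CYBB was higher in Combo than with either inhibitor alone (1.23 against iDOT1L, adjusted p = 0.00812, and 1.55 against iEZH2, adjusted p = 0.000489).

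**Figure D4:**
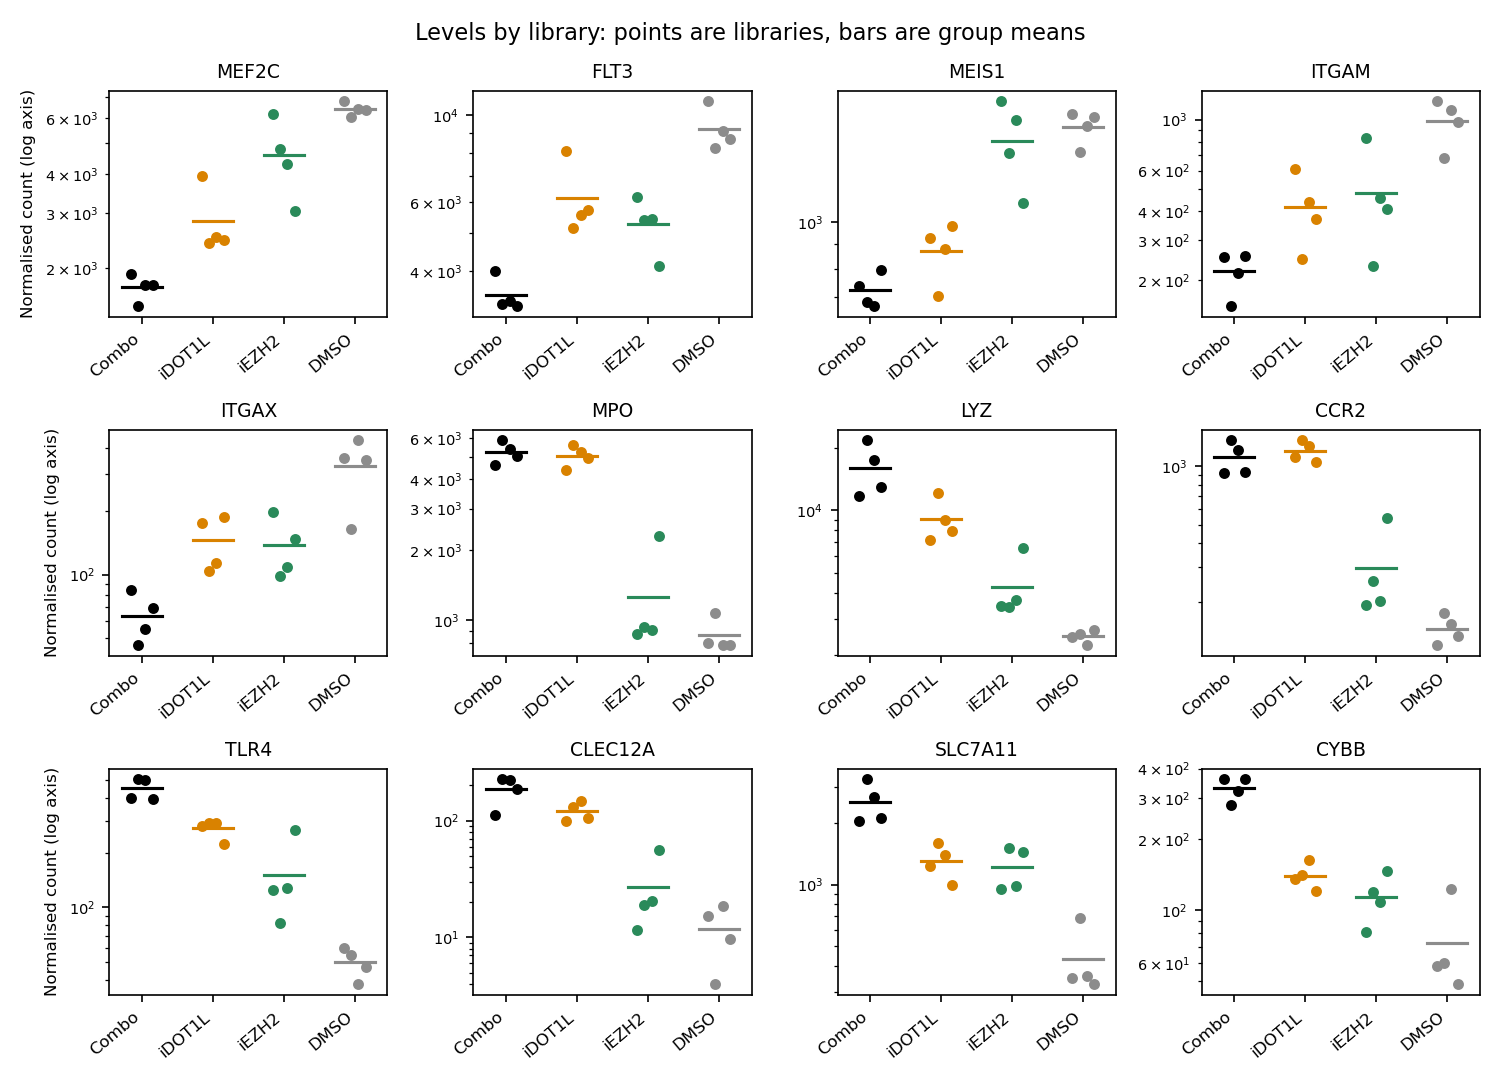
Normalised count (vertical log axis) of 12 genes in each library of Combo, iDOT1L, iEZH2 and DMSO, with bars at the group means, n = 4 libraries a group. MEF2C, FLT3, MEIS1, ITGAM and ITGAX have their lowest mean in Combo, and the other 7 lie above DMSO in every Combo library. For MPO and CCR2 the Combo and iDOT1L libraries lie close together, and iEZH2 replicate 4 is the highest of its group for several of the rising genes.

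Most of the rising myeloid genes were higher in Combo than in iEZH2. MPO differed by 2.19 (adjusted p = 4.66e-05), CCR2 by 2.02 (adjusted p = 0.000134), MNDA by 2.23 (adjusted p = 1.36e-05) and TLR4 by 1.70 (adjusted p = 0.000403). The same differences from iDOT1L were 0.06, -0.12, 0.66 and 0.72, and none passed the test (adjusted p = 0.936, 0.859, 0.116 and 0.137). Over the 46 monocyte and macrophage genes 10 were higher than in iEZH2, where 2.08% of tested genes were. Of the same genes 1 was lower than in iEZH2 (0 to 2 with a library left out). Against iDOT1L 0 were higher (1 without Combo replicate 1) and 5 were lower, where 1.48% of tested genes were. The number lower was 1 without Combo replicate 3 or 4 or iDOT1L replicate 1 or 3, and 2 without Combo replicate 2 or iDOT1L replicate 4.

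Of the transcription factors that steer myeloid cells, CEBPD and CEBPE rose. CEBPD had 1100, 972, 1110 and 1026 normalised counts in Combo libraries, against 529, 548, 561 and 611 in DMSO libraries (log2 fold change 0.90 ± 0.10 (SE), adjusted p = 4.28e-06). CEBPE, which governs the late granule genes, had 13.7, 17.5, 17.9 and 9.79 normalised counts in Combo libraries, against 0, 0, 4.48 and 2.00 in DMSO libraries (log2 fold change 2.93 ± 0.54 (SE), adjusted p = 0.000836). DMSO levels of CEBPE were under 5 normalised counts, so its fold depends on the pseudocount. IRF8, a factor of monocytes and dendritic cells, fell by 0.63 (adjusted p = 3.39e-05) and was lower than in iDOT1L as well (-0.45, adjusted p = 0.00777). SPI1 and CEBPA had log2 fold changes of -0.06 and -0.04 (adjusted p = 0.675 and 0.791).

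Receptor genes changed as a mixture. IL7R, the interleukin receptor chain of lymphoid progenitors, had 855, 1107, 1058 and 929 normalised counts in Combo libraries, against 173, 77.7, 225 and 154 in DMSO libraries (log2 fold change 2.73 ± 0.26 (SE), adjusted p = 2.18e-06). KIT, the stem cell factor receptor, had 133, 87.1, 116 and 137 normalised counts in Combo libraries, against 66.5, 12.9, 29.1 and 25.9 in DMSO libraries (log2 fold change 2.00 ± 0.39 (SE), adjusted p = 0.00158), and DMSO replicate 1 was the highest of its group. IL3RA (CD123), a receptor chain abundant on leukaemic blasts, had 1036, 742, 822 and 893 normalised counts in Combo libraries, against 1768, 1308, 1786 and 1743 in DMSO libraries (log2 fold change -0.92 ± 0.14 (SE), adjusted p = 0.000162). All 3 separated the groups. Of 21 receptors 4 were higher (19.0%, against 7.22% of all tested genes) and 8 lower (38.1%, against 8.80%). The lower ones include EPOR (-0.53, adjusted p = 0.00078) and IFNGR2 (-0.57, adjusted p = 0.00646).

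Next come the genes with the largest rises, by a rule that asks for groups that do not overlap. It also asks for a mean of at least 50 normalised counts in the higher group. SERPINB2, a protease inhibitor of stimulated monocytes, had 119, 119, 129 and 97.6 normalised counts in Combo libraries, against 0, 0, 3.24 and 0 in DMSO libraries (log2 fold change 6.34 ± 0.71 (SE), adjusted p = 7.53e-06). It is listed at 0 in 3 DMSO libraries, so its fold depends on the pseudocount, and it was 7.90 with a pseudocount of 0.25 and 3.83 with one of 8. SERPINB10, its neighbour on chromosome 18, had 129, 129, 156 and 103 normalised counts in Combo libraries, against 1.04, 2.12, 4.30 and 2.88 in DMSO libraries (log2 fold change 5.25 ± 0.36 (SE), adjusted p = 4.76e-08), and 20.7% of its words are shared, mainly with SERPINB2. LUM, the gene of the matrix proteoglycan lumican, had 92.1, 57.5, 62.9 and 64.8 normalised counts in Combo libraries, against 0, 3.13, 0 and 1.81 in DMSO libraries (log2 fold change 5.23 ± 0.47 (SE), adjusted p = 5.05e-07).

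TFAP2C, a transcription factor of germ cells and trophoblast, had 118, 68.8, 92.7 and 92.4 normalised counts in Combo libraries, against 6.40, 5.42, 3.30 and 0.983 in DMSO libraries (log2 fold change 4.36 ± 0.39 (SE), adjusted p = 5.35e-07). CCNA1, the A-type cyclin of the germ line that leukaemic cells also express, was the most abundant gene of this group, with 1580, 1383, 1735 and 1618 normalised counts in Combo libraries, against 109, 88.3, 107 and 113 in DMSO libraries (log2 fold change 3.91 ± 0.34 (SE), adjusted p = 1.47e-06). NR2F2, an orphan nuclear receptor, had 138, 106, 173 and 177 normalised counts in Combo libraries, against 11.6, 2.81, 21.5 and 16.4 in DMSO libraries (log2 fold change 3.65 ± 0.49 (SE), adjusted p = 4.06e-05). That the groups lie apart for these 3 genes follows from the rule. Other rises by the same rule were those of MGAM2, CLEC12A, SLAIN1, GPR141 and UGT3A1, at log2 fold changes of 3.44 to 3.99.

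LUM rose above the level of both single treatments. It had 69.3 ± 15.5 normalised counts in Combo libraries, against 6.73 ± 1.98 in iDOT1L and 9.38 ± 5.92 in iEZH2 libraries (log2 fold change 3.20, adjusted p = 0.00125, and 2.89, adjusted p = 0.000885). SLAIN1, a microtubule-binding protein gene, had 91.2 ± 10.2 in Combo and 22.1 ± 2.63 in iDOT1L libraries (log2 fold change 2.00, adjusted p = 0.00695), and its difference from iEZH2 (1.64, adjusted p = 0.0136) was not called without iEZH2 replicate 3 (adjusted p = 0.0629). For GPR141 and MGAM2 the log2 difference from iDOT1L was 0.09 and 0.25, and neither passed the test (adjusted p = 0.97 and 0.803).

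The largest falls were taken by the same rule, which asks for a mean of at least 50 in DMSO cells and for groups that do not overlap. ALDH1A3, which makes retinoic acid from retinal, had 290.1, 230.4, 215 and 202 normalised counts in Combo libraries, against 2021, 2026, 1911 and 1843 in DMSO libraries (log2 fold change -3.06 ± 0.18 (SE), adjusted p = 1.12e-08), and shares 26.1% of its words with an antisense transcript. C6orf223, a gene of unknown function, had 323, 86.5, 166 and 180.2 normalised counts in Combo libraries, against 2544, 1300, 2464 and 2277 in DMSO libraries (log2 fold change -3.60 ± 0.49 (SE), adjusted p = 0.000188). BCL2A1, a short-lived protein of the BCL2 family that blocks apoptosis, had 18.4, 9.04, 16.4 and 13.4 normalised counts in Combo libraries, against 112, 91.9, 105 and 126 in DMSO libraries (log2 fold change -2.88 ± 0.27 (SE), adjusted p = 7.98e-07). That the groups lie apart for all of these follows from the rule too. Other genes that the rule took were NCF1, EGR1, ALDOC, PFKFB4 and IFIT2, described with their groups, AGXT and ADSSL1, and the clone-named locus Z83844.3. That locus shares 98.1% of its words, mainly with SH3BP1, and its call (-5.11, adjusted p = 0.0181) was lost without Combo replicate 3. ALDH1A3 and BCL2A1 were also lower than in iEZH2 (-1.93, adjusted p = 9.77e-06, and -1.58, adjusted p = 0.00139).

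**Figure D5:**
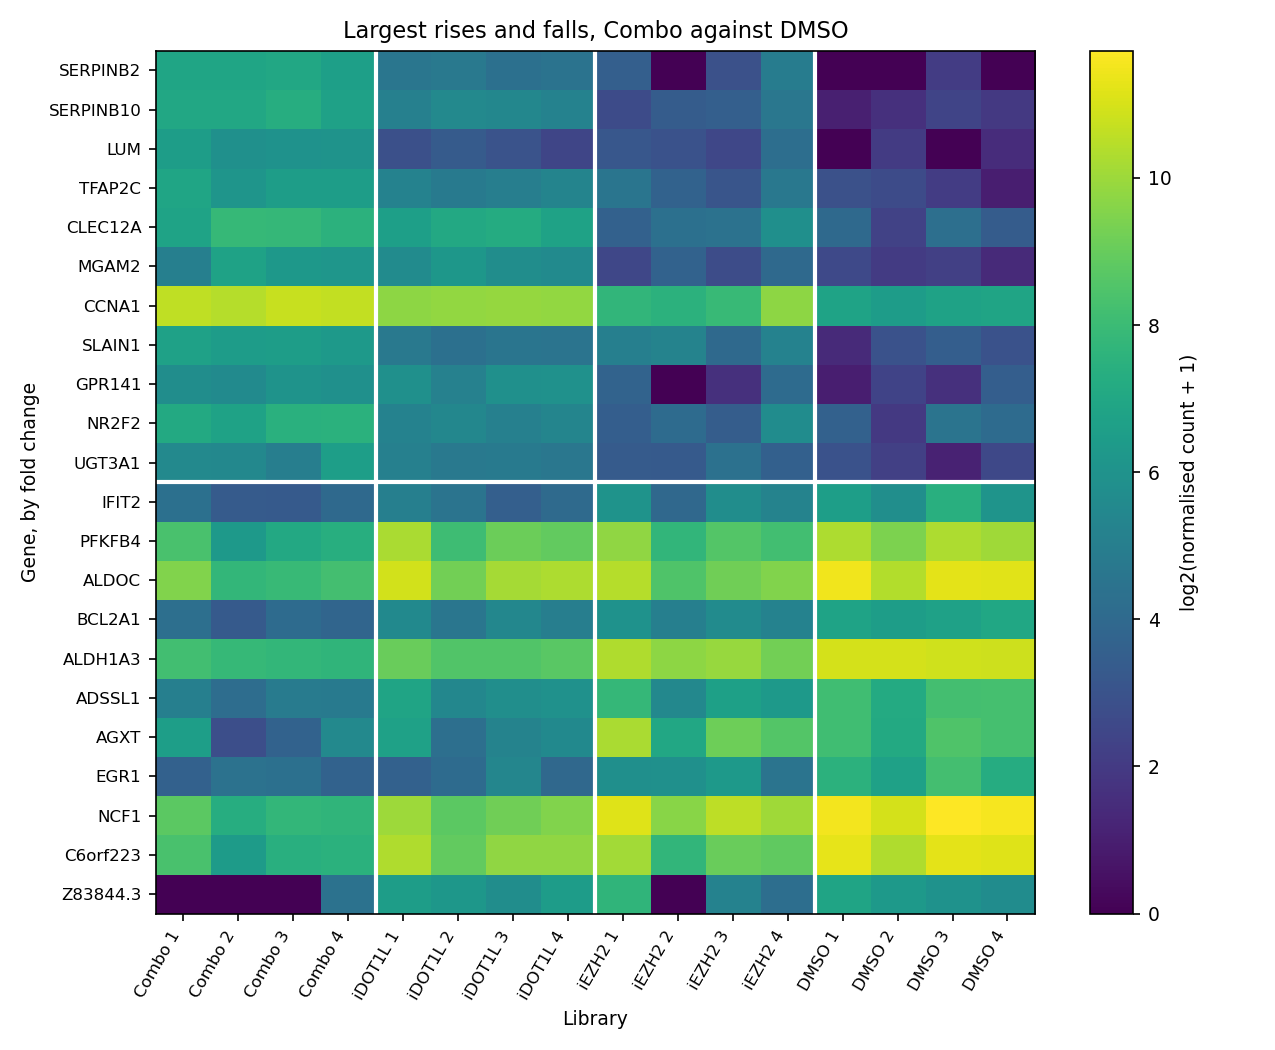
Level of 11 of the largest rises (upper block) and 11 of the largest falls (lower block) of Combo against DMSO, 1 row per gene and 1 column per library, coloured by log2 of the normalised count plus 1. SERPINB2 is listed at 0 in 3 DMSO libraries and Z83844.3 in 3 Combo libraries, AGXT varies widely among Combo libraries, and the means of the single treatments lie between those of Combo and DMSO except for AGXT, which is highest in iEZH2.

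Immediate early genes, which cells transcribe within minutes of a growth signal, were lower as a list, with 13 of 22 lower, 1 higher and a median of -0.86. EGR1, a zinc finger factor downstream of ERK, had 11.4, 20.5, 18.8 and 11.7 normalised counts in Combo libraries, against 183, 105, 296 and 153 in DMSO libraries (log2 fold change -3.42 ± 0.41 (SE), adjusted p = 1.1e-05). FOS, a partner in the AP-1 dimer, had 176, 171, 154 and 125 normalised counts in Combo libraries, against 501, 341, 592 and 403 in DMSO libraries (log2 fold change -1.53 ± 0.24 (SE), adjusted p = 0.000238). NR4A1, an orphan nuclear receptor, had 76.3, 54.0, 61.3 and 59.0 normalised counts in Combo libraries, against 232, 198, 264 and 231 in DMSO libraries (log2 fold change -1.87 ± 0.21 (SE), adjusted p = 4.88e-06). All Combo libraries were below all DMSO libraries. JUNB, JUND, ZFP36 and MCL1 fell by 0.89, 1.04, 1.35 and 0.61 on the log2 scale.

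JUN, another AP-1 partner, was the member that rose. It had 412, 411, 497 and 488 normalised counts in Combo libraries, against 118, 42.9, 84.9 and 82.9 in DMSO libraries (log2 fold change 2.53 ± 0.28 (SE), adjusted p = 6.46e-06). It was also higher than in iEZH2 (2.21, adjusted p = 0.000159), and its difference from iDOT1L was 0.54 (adjusted p = 0.355). Among 19 genes that feed back on MAPK signalling 4 were lower, namely DUSP7 (-1.33), SH2B3 (-0.90), ETV5 (-0.71) and ETV4 (-0.51). The 2 that were higher were each called in only part of the fits with a library left out, and in none of them without Combo replicate 1 or 3 or DMSO replicate 2 or 4.

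Stress genes fell in part. XBP1, the factor of the unfolded protein response, had 3276, 2974, 2688 and 2866 normalised counts in Combo libraries, against 8568, 8945, 9195 and 8887 in DMSO libraries (log2 fold change -1.60 ± 0.14 (SE), adjusted p = 4.14e-07). DDIT4, an inhibitor of mTORC1, had 14956, 5347, 8032 and 8560 normalised counts in Combo libraries, against 34947, 27872, 31712 and 33361 in DMSO libraries (log2 fold change -1.89 ± 0.31 (SE), adjusted p = 0.000716), and shares 38.3% of its words with an antisense gene. Of 30 genes that ATF4 or the unfolded protein response controls, 10 were lower (33.3%, against 8.80% of all tested genes) and 1 was higher (3.3%, against 7.22%). The higher one was SLC7A11, the cystine importer that feeds glutathione synthesis. It had 2043, 3293, 2671 and 2123 normalised counts in Combo libraries, against 351, 689, 359 and 325 in DMSO libraries (log2 fold change 2.60 ± 0.23 (SE), adjusted p = 1.23e-06), with DMSO replicate 2 highest of its group. GCLC, the first enzyme of glutathione synthesis, rose by 1.00 (adjusted p = 0.00032). The list of NRF2 and glutathione genes did not rise as a whole, with 3 of 20 higher, 3 lower and a median of 0.01. With a library left out 1 to 5 of that list were lower, and after median centring 6 were. XBP1 was lower than in iEZH2 (-0.70, adjusted p = 0.00486).

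Interferon-stimulated genes showed no common rise. Of 44 genes 9 were lower (20.5%, against 8.80% of all tested genes) and 2 higher (4.5%, against 7.22%), with a median of -0.15. Without Combo replicate 2 or DMSO replicate 4, 1 was higher. IFIT2, a binder of viral RNA, had 19.0, 9.47, 9.03 and 15.3 normalised counts in Combo libraries, against 93.9, 55.1, 170.1 and 66.7 in DMSO libraries (log2 fold change -2.70 ± 0.44 (SE), adjusted p = 0.000249). HERC5, the ligase that attaches ISG15, had 688, 619, 728 and 632 normalised counts in Combo libraries, against 258, 334, 336 and 336 in DMSO libraries (log2 fold change 1.08 ± 0.12 (SE), adjusted p = 4.88e-06). PARP14 fell by 0.76 (adjusted p = 0.000152) and was lower than in iEZH2 (-0.57, adjusted p = 0.00757), and HERC5 was higher than in iDOT1L (0.67, adjusted p = 0.00562).

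Genes of antigen presentation display peptides to T cells. In MHC class II, 1 of 9 tested genes was higher, HLA-DQB1, with 122, 81.7, 77.4 and 76.6 normalised counts in Combo libraries, against 28.8, 14.9, 34.7 and 23.1 in DMSO libraries (log2 fold change 1.81 ± 0.29 (SE), adjusted p = 0.000205), while CD74, the invariant chain, had a log2 fold change of 0.25 (adjusted p = 0.217). Rows of HLA-DRA and the HLA-DRB genes were not analysed here. In class I, 4 of 15 genes were higher (26.7%, against 7.22% of all tested genes) and 1 lower, and 1 was higher without Combo replicate 3 and 2 were without DMSO replicate 1 or 2. The lower gene, TAPBP, was not called without Combo replicate 4 or DMSO replicate 2 or 3. HLA-B, a class I heavy chain, was the one that held in every such fit (0.85, adjusted p = 0.00544), although its groups overlapped and 25.5% of its words occur in other HLA genes.

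Few genes of replication and mitosis were called. In DNA replication and S phase, 2 of 40 genes were higher (5.0%, against 7.22% of all tested genes) and 1 lower (2.5%, against 8.80%). Their median was 0.05, and 1 to 2 were higher and 0 to 1 lower with a library left out. In mitosis and G2 phase 5 of 38 were higher (13.2%) and 1 lower (2.6%), and between 0 and 4 were higher with a library left out. With the replicate number as a block in the fit, 9 DNA replication genes were higher and 5 lower, and 10 mitosis genes were higher. In the list of cyclin-dependent kinase inhibitors and D-type cyclins, 4 of 15 genes were lower (26.7%, against 8.80% of all tested genes). None was called higher, but 1 was with the replicate block. CDKN1A (p21) had 3600, 3160, 3250 and 3308 normalised counts in Combo libraries, against 4781, 4673, 5449 and 5315 in DMSO libraries (log2 fold change -0.60 ± 0.09 (SE), adjusted p = 8.12e-05), and CDKN1B (p27) fell by 0.48 (adjusted p = 0.00362). CDKN2A was at 3 normalised counts or fewer in all 8 libraries. CCND2, a D-type cyclin, fell by 0.46 (adjusted p = 0.00102).

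Among 27 p53 targets 6 were higher (22.2%, against 7.22% of all tested genes) and 4 lower (14.8%, against 8.80%). After median centring 3 were higher. GADD45A, a growth arrest gene, rose by 0.60 (adjusted p = 0.00278), and TNFRSF10B, a death receptor, fell by 0.52 (adjusted p = 0.00121). In the BCL2 family 3 of 16 genes were lower (18.8%, against 8.80%) and 1 was higher (6.2%, against 7.22%). The lower ones were BCL2A1, MCL1 and BID (-0.33, adjusted p = 0.0371). The call of BID was lost in 6 of the fits with a library left out. HRK, a BH3-only promoter of apoptosis, was the higher one, with 96.4, 166, 109.7 and 102 normalised counts in Combo libraries, against 73.7, 56.8, 42.2 and 37.9 in DMSO libraries (log2 fold change 1.17 ± 0.26 (SE), adjusted p = 0.00406). BCL2 itself had a log2 fold change of 0.06 (adjusted p = 0.817).

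Messenger RNAs of the mitochondrial genome took a larger share of the Combo libraries. They made up 2.89%, 2.66%, 3.54% and 3.49% of normalised counts in Combo libraries, against 1.66%, 1.98%, 2.36% and 2.50% in DMSO libraries. Of 13 mRNAs 11 were higher, with a median of 0.62. MT-CYB, of complex III, had 35182, 31686, 42617 and 41135 normalised counts in Combo libraries, against 18208, 21998, 24700 and 25902 in DMSO libraries (log2 fold change 0.73 ± 0.17 (SE), adjusted p = 0.00644), and MT-ND3, of complex I, rose by 0.59 (adjusted p = 0.00284). Many mitochondrial genes have nuclear copies, and 7 of the 11 share over 20% of their words with them. The mitochondrial share of a library can follow the state of the cells at lysis, which was not tested.

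Cytosolic ribosomal protein genes also took a larger share, 16.2%, 11.9%, 13.5% and 14.3% of normalised counts in Combo libraries, against 11.5%, 10.5%, 11.5% and 11.4% in DMSO libraries. Of 78 genes 34 were higher, with a median of only 0.29, so the count depends on settings. It was 70 without Combo replicate 2, 11 without Combo replicate 1 and 15 to 21 without any 1 of the other 6 libraries. It was 11 after median centring and 70 with the replicate block. RPSA had 54645, 39750, 45893 and 48392 normalised counts in Combo libraries, against 35323, 34336, 35640 and 35961 in DMSO libraries (log2 fold change 0.41 ± 0.08 (SE), adjusted p = 0.00207), and shares 27.5% of its words with other genes. Genes of ribosome biogenesis did not move with them, as 1 of 30 was higher and none lower (1 lower without Combo replicate 2).

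Developmental transcription factors, many of them silent under PRC2 in blood cells, were higher more often than tested genes as a whole. Their share of lower members was close to that of all tested genes. Of 83 listed genes 54 were found in the expression table by symbol, and all 54 were tested. Of these 13 were higher (24.1%, against 7.22% of all tested genes) and 5 lower (9.3%, against 8.80%). The listed genes that were not found do not enter the count. TWIST1, a factor of mesoderm, had 271, 185, 279 and 287 normalised counts in Combo libraries, against 29.7, 27.2, 40.6 and 33.4 in DMSO libraries (log2 fold change 2.92 ± 0.21 (SE), adjusted p = 8.9e-08). POU4F1, a factor of sensory neurons, had 642, 563, 620.2 and 632 normalised counts in Combo libraries, against 262, 232, 269 and 308 in DMSO libraries (log2 fold change 1.20 ± 0.10 (SE), adjusted p = 4.37e-07), and shares 27.2% of its words with an antisense gene. EBF1, a factor of early B cells, had 48.5, 24.8, 36.3 and 49.1 normalised counts in Combo libraries, against 0, 3.49, 1.74 and 3.89 in DMSO libraries (log2 fold change 3.82 ± 0.55 (SE), adjusted p = 7e-05). All Combo libraries were above all DMSO libraries for the 3 genes, and the fold of EBF1, under 4 normalised counts in DMSO, depends on the pseudocount.

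DLX5, a homeobox factor of bone and forebrain, fell. It had 369, 282, 312 and 368 normalised counts in Combo libraries, against 1106, 921, 1176 and 1159 in DMSO libraries (log2 fold change -1.71 ± 0.15 (SE), adjusted p = 4.87e-07). PAX5, the commitment factor of B cells, fell by 1.02 (adjusted p = 0.00136). TWIST1 was higher than in iDOT1L (2.11, adjusted p = 8.83e-05), with a difference of 0.73 from iEZH2 (adjusted p = 0.0684, but 0.0321 without Combo replicate 2 and 0.0131 without iEZH2 replicate 4), and DLX5 was lower than in iEZH2 (-1.38, adjusted p = 3.43e-05). POU4F1 was higher than in iDOT1L (0.69, adjusted p = 0.00174). None of 9 tested HOXB genes was called in Combo against DMSO.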

How the data were processed

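RNA-seq was done on Molm14 cells of 4 groups with 4 libraries each. The table deposited by the authors holds log2 values of 22445 Ensembl gene IDs, scaled between samples and variance-stabilised. The submitters' processing notes name kallisto, DESeq2 and the hg38 build, while versions and the transcript annotation were not given in the sources used here. Its lowest value, 6.28106, is the same in all libraries and was read as a count of 0. Normalised counts were recovered with the inverse of the transformation, and 66.7% to 70.1% of low values then lay within 0.1 read of a whole number, so no count test was run. Symbols came from GENCODE release 29 (20784 IDs matched, 1661 did not).

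The test took 22331 genes, those over 1 normalised count in 4 or more libraries. Values were put on the log2(normalised count + 1) scale, a pseudocount that understates changes of scarce genes, and limma-trend (limma 3.58.1, R 4.3.3, with robust moderation) was run over 16 libraries and 4 group means, with Benjamini-Hochberg adjustment and an adjusted p under 0.05. Pearson correlations between the 8 libraries were 0.967 to 0.981, no pair held identical values above 0, and same-numbered Combo and DMSO libraries did not meet the criterion for pairing (a correlation over 0.1 for each). No column of another sample was in the table. Named genes are a fixed set of 30, and the 12 largest rises and 12 largest falls whose higher group averaged 50 or more. Up to 4 called members of each list were added by adjusted p. Outside the fixed set the rule asked for groups that do not overlap, so the separation of such genes was fixed by the choice. Some genes that this rule takes are not reported here. Genes outside it were named after their values were seen. The members, lists and rule were chosen with earlier results of these data known. Alternatives were other pseudocounts, filters and scalings, the deposited values, a replicate block, the 8 libraries alone, and each library left out.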

Additional observations from a re-analysis of the deposited data

Results flagged for a closer look

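In all, 302 groups of 4 libraries were looked at, those of Combo and DMSO for each gene named except BID. Of these, 33 held a library whose gap to the next was a larger part of the group's range than Dixon's 95% critical value for 4 samples. Chance flags about 1 in 20 groups. Values are normalised counts, with the nearest library in brackets. Combo replicate 1 lay above the other 3 Combo libraries for ALDOC at 715 (next 299), DUSP7 at 1444 (next 1200), FLT3 at 3988 (next 3339), HLA-DQB1 at 122 (next 81.7), LDHA at 21533 (next 16506), PGK1 at 15720 (next 12571), SOCS2 at 2498 (next 2025) and SQLE at 1956 (next 1448). Combo replicate 1 lay below the other 3 Combo libraries for CD34 at 1.54 (next 9.02) and DOT1L at 4235 (next 6328). Combo replicate 2 lay above the other 3 Combo libraries for CDK6 at 7361 (next 4938) and TFRC at 6805 (next 5033). Combo replicate 2 lay below the other 3 Combo libraries for MT-ND3 at 11470 (next 13821) and TWIST1 at 185 (next 271). Combo replicate 4 lay above the other 3 Combo libraries for Z83844.3 at 20.5 (next 0). Combo replicate 4 lay below the other 3 Combo libraries for GP9 at 6.87 (next 11.3). DMSO replicate 1 lay below the other 3 DMSO libraries for CEBPA at 10332 (next 11719), EZH2 at 1578 (next 1968) and HERC5 at 258 (next 334). DMSO replicate 2 lay above the other 3 DMSO libraries for DOT1L at 6946 (next 6761), MPO at 1078 (next 803) and SLC7A11 at 689 (next 359). DMSO replicate 2 lay below the other 3 DMSO libraries for ACAT2 at 2781 (next 3426), ADSSL1 at 141 (next 281), CD74 at 3113 (next 3856), DUSP7 at 2466 (next 3347), HOXA11 at 979 (next 1137), IL3RA at 1308 (next 1743), ITGB7 at 302 (next 396), PGK1 at 18670 (next 20515) and RAC2 at 7934 (next 10657). DMSO replicate 3 lay above the other 3 DMSO libraries for CYBB at 123 (next 59.6) and SERPINB2 at 3.24 (next 0). Combo replicate 1 and DMSO replicate 2 hold most of these. The fits without each of these libraries gave 1368 higher and 1756 lower genes (without Combo replicate 1) and 1381 higher and 1782 lower genes (without DMSO replicate 2). The reasons were not tested.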

How the results depend on the processing

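Counts of genes higher or lower in Combo than in DMSO stayed within 1.5 times under the other pseudocounts, filters, TMM scaling, the values as deposited, a fit without trend or robust moderation and a fit of the 8 libraries alone, except that median centring gave 1039 higher genes. With a library left out there were 1158 to 1586 higher and 1470 to 1997 lower genes. Against iDOT1L, leaving out libraries gave 122 to 236 higher and 77 to 342 lower genes, and the fit without trend gave 115 lower. Against iEZH2, it gave 266 to 712 higher and 217 to 637 lower genes, and the 8 libraries alone gave 287 higher and 224 lower. The causes were not tested.

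Whether replicate numbers, which the table's columns also share across groups, stand for a common batch is not stated. The criterion for pairing was not met, since the residual correlations of same-numbered libraries were 0.006 to 0.272 and not all over 0.1, and 2 of 4 Combo libraries correlated best with their own number. Replicate 2 was nonetheless the lowest of its group on the second principal component in all 4 groups, and replicate 1 had the lowest mitochondrial share in iDOT1L, iEZH2 and DMSO but not in Combo. With the replicate block 2525 genes were higher and 2974 lower in Combo against DMSO. They were 843 and 1397 against iDOT1L, and 966 and 1170 against iEZH2. List counts against DMSO moved as well. Among others, 70 instead of 34 ribosomal protein genes, 9 instead of 2 DNA replication genes, and 10 instead of 5 each of mitosis and MYC-responsive genes were higher. Lower were 8 instead of 4 genes of DOT1L and the super elongation complex, 7 instead of 4 myeloid transcription factors and 6 instead of 2 PRC1 genes.

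Of 2715 values of 151 genes under the alternatives 2685 kept direction and side of the threshold. Sign changes were limited to genes that were not called, namely BCL2 (-0.03 under median centring, -0.05 to 0.14 with a library left out, the sign changing without Combo replicate 2, without DMSO replicate 3), CD34 (-0.41 to 0.48 with a library left out, the sign changing without Combo replicate 1, without DMSO replicate 2, without DMSO replicate 3), CDKN2A (-0.44 to 0.16 with a library left out, the sign changing without Combo replicate 1, without Combo replicate 4, without DMSO replicate 2). Of list counts, PRC1 genes lower were 4 with a mean of at least 10 and 1 with TMM scaling, lymphoid markers higher were 3 with a mean of at least 10, ribosome biogenesis genes higher were 3 and ribosomal protein genes higher 22 in the 8 libraries alone, and without trend ribosomal protein genes higher were 12, class I genes higher 2, mitosis genes higher 2 and HOXB genes higher 1. Genes under 10 normalised counts limit what this depth can show.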

Other observations

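A few smaller gene groups changed alongside those above. Of 30 lysosomal genes 5 were higher and 1, CTSB, was lower, and after median centring 2 were higher and 4 lower. ASAH1, the acid ceramidase, had 1232, 1175, 1183 and 1245 normalised counts in Combo libraries, against 857, 849.9, 874 and 779.8 in DMSO libraries (log2 fold change 0.53 ± 0.08 (SE), adjusted p = 8.22e-05). Its groups did not overlap. TLR2, which senses bacterial lipoproteins, had 932, 926, 954 and 865 normalised counts in Combo libraries, against 617, 475, 528 and 506 in DMSO libraries (log2 fold change 0.79 ± 0.13 (SE), adjusted p = 0.000333), and was higher than in iEZH2 (0.93, adjusted p = 0.000328). TFRC, the transferrin receptor, fell by 0.44 (adjusted p = 0.00931).

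Of 23 tested lymphoid markers 5 were higher and 3 lower, mostly at low levels, and 3 were higher without Combo replicate 1 or 3. CD8A, a T cell coreceptor chain, had 32.2, 10.3, 23.2 and 24.4 normalised counts in Combo libraries, against 3.67, 5.43, 5.04 and 4.96 in DMSO libraries (log2 fold change 1.93 ± 0.38 (SE), adjusted p = 0.00133). NCAM1 (CD56), an adhesion molecule that some myeloid leukaemias carry, fell by 0.55 (adjusted p = 0.00209). GP9, a platelet glycoprotein, had 11.4, 11.3, 11.7 and 6.87 normalised counts in Combo libraries, against 25.2, 20.9, 28.1 and 24.0 in DMSO libraries (log2 fold change -1.20 ± 0.27 (SE), adjusted p = 0.00387). The T cell markers CD3D and CD3G summed to at most 29.8 normalised counts in any Combo or DMSO library.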
